A study of Mus musculus with 8 samples.

Results

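The excitatory neurons of the mouse prefrontal cortex (PFC) were compared by the position their annotation gives them, superficial layer (SL) against deep layer (DL). Members were the annotated PFC cells whose subtype name begins with SL- (SL-Cux2 and SL-Myh7) or with DL- (DL-Etv1, DL-Foxp2, DL-Nnat, DL-Pou3f1 and DL-Tshz2). There were 820 SL and 1955 DL neurons, together all 2775 excitatory neurons among 8997 annotated PFC cells, of 23687 annotated cells in the series. The cells came from 4 single-cell RNA sequencing libraries, 2 from wild-type (WT) mice and 2 from Setd1a+/- mice, each made from the PFC of 2 pooled male C57BL/6N mice with a labelled age of 8 to 10 weeks; the methods give an older age. Setd1a encodes a histone H3 lysine methyltransferase, and the mutant allele is a frameshift in exon 15 made by CRISPR/Cas9 in a founder that was then backcrossed, so the Setd1a+/- mice carry the same mutant allele. By the methods, a biological replicate consisted of 1 WT and 1 Setd1a+/- library.

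Excitatory neurons of the neocortex use glutamate and are stacked in layers that are generated in sequence during development. Superficial neurons project mainly to other cortical areas. Deep neurons include corticothalamic cells, cells that project to the brainstem and spinal cord, near-projecting cells and further intracortical cells. The fate of each class is set by transcription factors that partly repress one another, among them CUX1 and CUX2 in superficial neurons and FEZF2, BCL11B (CTIP2), TBR1 and FOXP2 in deep ones.

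The SL neurons of WT replicates 1 and 2 and of Setd1a+/- replicates 1 and 2 numbered 89, 339, 196 and 196, and the DL neurons 321, 850, 496 and 288. Their summed unique molecular identifiers (UMIs, 1 per captured transcript) ranged from 791377 to 1880385 in SL and from 2198140 to 5299254 in DL. Levels are given below as CPM, the UMIs of a gene per 1000000 UMIs of that side and library, in the order WT 1, WT 2, Setd1a+/- 1, Setd1a+/- 2. Where only 2 CPM values are given for a gene, they are its means over the 4 libraries in SL and in DL, unless subtypes are named. On this scale 1 UMI was worth 0.532 to 1.26 CPM in SL and 0.189 to 0.455 CPM in DL. Between libraries, 5 cell barcodes were shared among these neurons. The median SL cell held 8975, 5277, 6658 and 6403.5 UMIs and the median DL cell 9210, 5882, 6433 and 6806.5, so that the libraries differed more in depth than the sides did. The mean difference of SL minus DL was -254.5 ± 354 UMIs (SD, n = 4 libraries; exact two-sided sign-flip permutation test, p = 0.25, where the smallest possible p is 0.125). The library medians of detected genes per cell averaged 2856 ± 464 in SL and 2857 ± 365 in DL (SD, n = 4 libraries, exact permutation p = 1). After each cell with at least 2000 UMIs was thinned to 2000, these medians averaged 1231.5 ± 23.9 genes in SL and 1227 ± 19.0 in DL (SD, n = 4). Cells below 2000 UMIs were left out there, 3, 47, 1 and 26 in SL and 6, 75, 6 and 20 in DL.

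The makeup of the 2 sides was not constant over libraries. SL-Cux2 gave 74.2, 84.7, 71.4 and 67.9% of the SL cells, and SL-Myh7 the rest. DL-Foxp2 was the most frequent DL subtype in 3 libraries, with 37.7, 41.3 and 40.7% of the DL cells, and gave 23.96% in Setd1a+/- replicate 2, where DL-Etv1 held 33.7% against 15.9, 16.7 and 18.8% elsewhere. DL-Tshz2 ranged from 10.4 to 24.3%, DL-Nnat from 17.7 to 27.5% and DL-Pou3f1 from 2.18 to 4.12%. A level of a whole side therefore carries the mix of its subtypes, and subtype levels are given beside some of the genes. Where 1 CPM value is given for a subtype and no library is named, it is the mean over libraries with at least 10 of its cells. For DL-Pou3f1 these were only WT replicate 2 (35 cells) and Setd1a+/- replicate 1 (12 cells).

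The sides held excitatory neurons by their markers, whose summed level over 9 genes was 7884 to 7980 CPM in SL and 8615 to 9493 CPM in DL. The same sum was 135 to 333 CPM in the non-neuronal types and 3946 CPM in inhibitory neurons. The markers of other cell types were low. The 10 interneuron markers summed to 7.58 to 56.0 CPM in SL and 7.28 to 42.8 CPM in DL, against 14325 CPM in inhibitory neurons. The 8 oligodendrocyte markers summed to 87.5 to 165 and 108 to 170 CPM, against 73685 CPM in oligodendrocytes, and the 8 microglial markers to at most 54.2 CPM on either side against 40040 CPM in microglia. The summed level of the 8 astrocyte markers was 329 to 516 CPM in SL and 612 to 667 CPM in DL, against 11746 CPM in astrocytes. Slc1a2, a glutamate transporter, gave most of that sum (410 CPM in SL and 617 CPM in DL). Of the 3 markers tested in the comparison of the sides below, Slc1a2 and Cldn10 (2.38 and 10.7 CPM) were called higher in DL and Slc1a3 (8.27 and 3.34 CPM) higher in SL, while Aqp4 was at 0.189 and 0.424 CPM and Gfap at 0.510 and 0.0944 CPM. The part of free or admixed RNA in the differences below was not tested.

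The first comparison asks which genes separate SL from DL neurons within a library. The subtype names were drawn from the expression of these same cells, so a difference between the sides is not an independent finding, and the test below describes only how repeatable it was over the 4 libraries. UMIs were summed per library and side and compared with edgeR with the library as a block. Of 10314 genes tested, 599 were called higher in SL (5.81%) and 606 higher in DL (5.88%), at a false discovery rate (FDR) under 0.05 and a fold above 1.5. Together that is 1205 genes, or 11.7%. DESeq2 called 778, edgeR without the library block 682, and edgeR on cells thinned to 2000 UMIs 690 of 6923 tested. With the subtypes of a side weighted equally, 579 were higher in SL and 395 in DL of 7789 tested, so that the SL share of the calls was 59.4% in place of 49.7%. Of the 599 and 606 genes called without this weighting, 535 and 583 had the same direction in all 4 libraries. The median size of the log2 difference was 0.92 and 0.95, and the median SD of a gene's log2 difference over the 4 libraries was 0.35 and 0.37. More than 2-fold differences were found for 260 and 282 genes, and more than 4-fold for 52 and 90. Over all genes tested, the values of the sides did not overlap for 13.3%; among the called genes this held for 394 of 599 and 431 of 606.

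The genes that led the SL side were Ddit4l and Cux2. Ddit4l (DDIT4 like, an inhibitor of mTOR signalling, GRCm38 chr3:137621612-137628333) was at 64.4, 61.2, 86.7 and 91.3 CPM in SL and at 3.35, 3.21, 3.56 and 5.00 CPM in DL. Every SL value was above every DL value, and the fitted log2 difference was 4.32. Cux2 (chr5:121856366-122050102), the homeodomain factor that gives SL-Cux2 its name, was at 121, 73.9, 154 and 138 CPM in SL and at 6.37, 9.25, 7.11 and 9.55 CPM in DL, a log2 difference of 3.80. Although it names only 1 of the SL subtypes, Cux2 was at 113 CPM in SL-Cux2 and at 146 CPM in SL-Myh7, and the highest DL subtype was DL-Etv1 with 17.6 CPM.

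Calb1 encodes calbindin, a cytosolic calcium buffer. It was at 192, 104, 267 and 230 CPM in SL and at 16.4, 13.0, 17.8 and 20.5 CPM in DL (log2 difference 3.49). The SL level was the mean of unlike subtypes, with 473 CPM in SL-Myh7 and 100.4 CPM in SL-Cux2. S100a6, another calcium-binding protein, showed the same order (355 and 133 CPM), as did Lamp5, a lysosome-associated membrane protein of neurons (364 and 122 CPM), and Nectin3, a cell adhesion molecule (98.5 and 23.9 CPM). Lamp5 was also at 212 CPM in DL-Pou3f1, above its level in SL-Cux2. In the opposite direction, Tcap, which encodes the muscle protein telethonin, was at 90.4 CPM in SL-Cux2 and at 8.78 CPM in SL-Myh7, below DL-Etv1 (18.7 CPM) and DL-Nnat (21.1 CPM). Synpr, encoding the synaptic vesicle protein synaptoporin, was at 507 to 889 CPM in SL and 70.1 to 172 CPM in DL.

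The other SL genes named by the rule were Myh14, BC030499, Car4, Adam33, Gpr83, Neurod1 and Smoc2, with log2 differences from 2.44 to 2.75. Myh14, a nonmuscle myosin heavy chain, differed between the replicates on both sides, at 34.1 and 31.5 CPM in the SL neurons of replicate 1 and 60.1 and 89.7 CPM in those of replicate 2. Neurod1, a basic helix-loop-helix factor of neuronal differentiation, was at 102, 78.2, 72.9 and 71.6 CPM in SL and at 11.4, 11.1, 16.9 and 19.6 CPM in DL. Of the DL subtypes, DL-Pou3f1 had the most of it, 46.4 CPM.

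The first DL genes were nearly absent from SL. Nxph3 (neurexophilin 3, a secreted ligand of alpha-neurexins, chr11:95509845-95514570) was at 44.6, 50.2, 34.7 and 28.2 CPM in DL. In SL it was at 0 in 3 libraries and at 1.06 CPM in WT replicate 2, which is 2 UMIs in all against 578 in DL. The ratio of the UMI rates was 111 (exact 95% interval 30.5 to 915, for counting error only). Sema5a, which encodes a transmembrane semaphorin of axon guidance, was at 64.4, 82.8, 55.4 and 60.1 CPM in DL on 950 UMIs and had 5 UMIs in SL. Both genes sat chiefly in DL-Foxp2 and DL-Tshz2. Nxph3 had 78.4 and 135 CPM there and at most 3.29 CPM in the other DL subtypes, and Sema5a had 174 and 69.3 CPM against at most 15.1 CPM.

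Some DL genes came from 1 or 2 subtypes. Foxp2, the forkhead factor of corticothalamic neurons, was at 96.2, 100.4, 105 and 66.4 CPM in DL and 5.05, 2.13, 4.60 and 1.51 CPM in SL, and came from DL-Foxp2 (275 CPM) and DL-Tshz2 (65.9 CPM). In DL-Etv1 (3.16 CPM) and DL-Nnat (2.96 CPM) it was no higher than in SL-Cux2 (4.46 CPM). Rprm, encoding the cell cycle regulator reprimo, had 2067 CPM in DL-Foxp2 and 34.8 CPM in DL-Nnat, the latter below the 67.3 CPM of SL-Cux2. Il11ra1, a receptor subunit for interleukin 11, had 656 CPM in DL-Tshz2 and at most 80.0 CPM elsewhere.

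A second set was spread over every DL subtype. Bcl11b, the zinc finger factor of subcerebral projection neurons, was at 128, 99.8, 107 and 79.6 CPM in DL and 3.79, 3.19, 9.21 and 4.53 CPM in SL, a log2 difference of -4.29. Its DL subtypes ran from 16.2 CPM in DL-Etv1 to 309 CPM in DL-Pou3f1, all above SL-Cux2 (4.34 CPM) and SL-Myh7 (6.81 CPM). Rxfp1, the relaxin receptor, was at 13.4 to 39.9 CPM in the 5 DL subtypes and at most 1.11 CPM in the SL subtypes. Grik3, a kainate receptor subunit, was at 18.2 to 94.0 CPM against at most 3.26 CPM, and Spon1, an extracellular matrix protein, at 31.0 to 222 CPM against at most 14.8 CPM. The remaining named DL genes were Ighm, Arhgap25, Rnf152, Glra2, Plcxd3 and Prss23, of which Ighm lost its call with subtypes weighted equally.

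**Figure D1:**
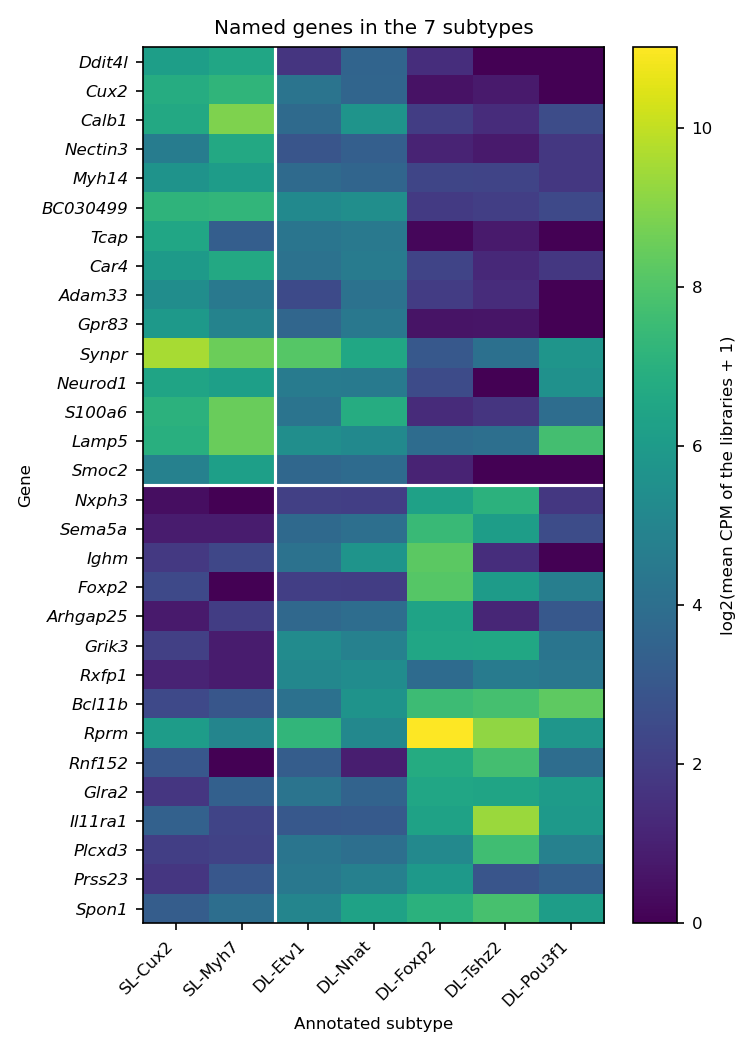
Levels of the 30 named genes (rows) in the 7 annotated subtypes (columns), as log2 of the mean CPM plus 1. The mean is over libraries with at least 10 cells of the subtype. The upper 15 genes were higher in SL and the lower 15 in DL; white lines part the sides, and Rprm in DL-Foxp2 is the brightest cell, at 2067 CPM before the log.

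The named genes were asked whether they share letters in their promoters. RefSeq (GRCm38.p6) gave the 250 bases upstream of a RefSeq start site for 20 of the 30. Such a start can lie inside the span of the gene in the GENCODE annotation, as it does for Ddit4l, Cux2 and Arhgap25 below. The first 2 genes of each side with an entry are shown, 5′ to 3′, with capitals for any motif that was searched.

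Ddit4l, chr3:137623422-137623671, plus strand: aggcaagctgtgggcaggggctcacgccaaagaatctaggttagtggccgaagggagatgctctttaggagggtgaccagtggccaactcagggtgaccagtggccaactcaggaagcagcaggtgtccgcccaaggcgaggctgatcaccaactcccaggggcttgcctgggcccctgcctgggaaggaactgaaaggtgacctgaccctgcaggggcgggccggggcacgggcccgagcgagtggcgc
Cux2, chr5:122049852-122050101, minus strand: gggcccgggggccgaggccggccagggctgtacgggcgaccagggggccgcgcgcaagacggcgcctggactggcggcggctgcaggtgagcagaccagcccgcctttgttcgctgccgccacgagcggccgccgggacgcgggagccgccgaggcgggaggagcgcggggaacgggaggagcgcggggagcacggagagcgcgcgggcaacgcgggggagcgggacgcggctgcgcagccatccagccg
Sema5a, chr15:32244563-32244812, plus strand: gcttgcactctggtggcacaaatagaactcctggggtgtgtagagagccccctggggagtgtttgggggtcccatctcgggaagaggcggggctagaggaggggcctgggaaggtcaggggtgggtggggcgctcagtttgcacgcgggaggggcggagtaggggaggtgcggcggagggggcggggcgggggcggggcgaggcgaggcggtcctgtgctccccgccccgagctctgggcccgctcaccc
Arhgap25, chr6:87496328-87496577, minus strand: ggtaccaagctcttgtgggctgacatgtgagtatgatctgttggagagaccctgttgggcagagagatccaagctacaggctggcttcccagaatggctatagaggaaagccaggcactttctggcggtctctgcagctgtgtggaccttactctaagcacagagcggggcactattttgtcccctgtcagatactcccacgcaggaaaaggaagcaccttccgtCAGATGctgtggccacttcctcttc

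The letters searched on both strands were ATCGAT for CUX factors. For POU factors the octamer was ATGCAAAT. For forkhead factors they were TGTTTAC. A T-box half-site was read as TCACACC. An E-box bound by NEUROD factors was read as CAGATG. The TATA box was read as TATAAA. The only capitals are the E-box of Arhgap25, which begins 25 bases upstream of the start. The 4 promoters were unlike in composition, with 40 CpG in that of Cux2, 17 in Sema5a, 10 in Ddit4l and 4 in Arhgap25. Of the other 16 named genes with an entry, Gpr83 and Rnf152 held the T-box letters and Glra2 the TATA letters, 36 bases upstream of the start. Over all genes tested with an entry (8040), 8.92% of the windows held the E-box, against 11.1% of the SL genes and 9.15% of the DL genes. The CUX letters were in 0.684%, 1.11% and 1.14%, the octamer in 1.16%, 1.56% and 2.52%, the forkhead letters in 1.94%, 1.56% and 2.06%, and the T-box letters in 2.72%, 2.67% and 2.52%. TATAAA was in 5.72%, 9.78% and 5.49%. These are descriptions of letters in a short window and were not tested.

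Of 45 layer transcription factors tested, 11 were higher in SL and 16 in DL (60.0% called, against 11.7% of all genes). On the SL side, Rorb, a nuclear receptor of layer 4 neurons, was at 303, 195, 171 and 173 CPM in SL and at 63.4, 57.4, 48.6 and 107 CPM in DL. It marked SL-Cux2 (279 CPM) and not SL-Myh7 (22.9 CPM), which lay below DL-Nnat (117 CPM) and DL-Etv1 (113 CPM). Mef2c, a MADS box factor of neuronal activity programs, was at 3324 to 4579 CPM in SL and 1481 to 2410 CPM in DL. Tle1 and Tle4 encode corepressors of the same family and went opposite ways, Tle1 with a mean of 30.4 CPM in SL and 7.85 CPM in DL and Tle4 with 18.8 and 147 CPM. The Tle4 of the DL side lay in DL-Foxp2 (310 CPM) and DL-Tshz2 (368 CPM), with 14.9 to 27.8 CPM in the other DL subtypes against 21.8 CPM in SL-Cux2. Cux1 was at 27.4 and 12.9 CPM, a smaller difference (log2 1.10) than that of Cux2.

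On the DL side, Tbr1 was at 69.5, 59.6, 58.3 and 44.5 CPM in SL and 148, 162, 158 and 147 CPM in DL, and Fezf2 at 16.4, 19.7, 23.0 and 11.3 CPM in SL and 86.2, 46.0, 83.0 and 35.5 CPM in DL. Unlike Bcl11b, both factors were thus well above 0 in SL neurons. Tbr1 was at 272 CPM in DL-Foxp2, 123 CPM in DL-Etv1 and 103 CPM in DL-Nnat. In DL-Tshz2 (62.3 CPM) it was level with SL-Cux2 (62.2 CPM). Its DL-Pou3f1 level (40.3 CPM) was below SL-Cux2 and SL-Myh7 (46.0 CPM). The Fezf2 of the SL side came from SL-Cux2 (23.4 CPM), with 0.483 CPM in SL-Myh7. Among the DL subtypes Fezf2 ran from 21.5 CPM in DL-Nnat to 202 CPM in DL-Tshz2. Sox5, a factor of deep-layer identity, was even over the DL subtypes, at 34.7 to 78.3 CPM, against 16.1 and 19.99 CPM in the SL subtypes. Nfia, a nuclear factor I gene, had means of 17.9 CPM in SL and 90.2 CPM in DL (log2 difference -2.34), and its paralog Nfib 101 and 192 CPM. Nfib, at 324 CPM in DL-Foxp2, lost its call without the DL-Foxp2 cells. Nfia was at 217 CPM in DL-Foxp2 but at 18.1 CPM in DL-Etv1, below the 20.7 CPM of SL-Cux2.

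The factors that name DL subtypes did not mark the whole side. Tshz2 was at 2275 CPM in DL-Tshz2 and at 3.42 to 8.71 CPM in the other DL subtypes, below SL-Cux2 with 36.8 CPM, and without the DL-Tshz2 cells its log2 difference turned from -3.09 to 2.17. Etv1 was at 1031 CPM in DL-Tshz2, more than in DL-Etv1 (233 CPM). Foxp1 (adjusted p = 0.862 by edgeR) and Nfix (adjusted p = 0.537) were not called, and their levels on the 2 sides overlapped.

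**Figure D2:**
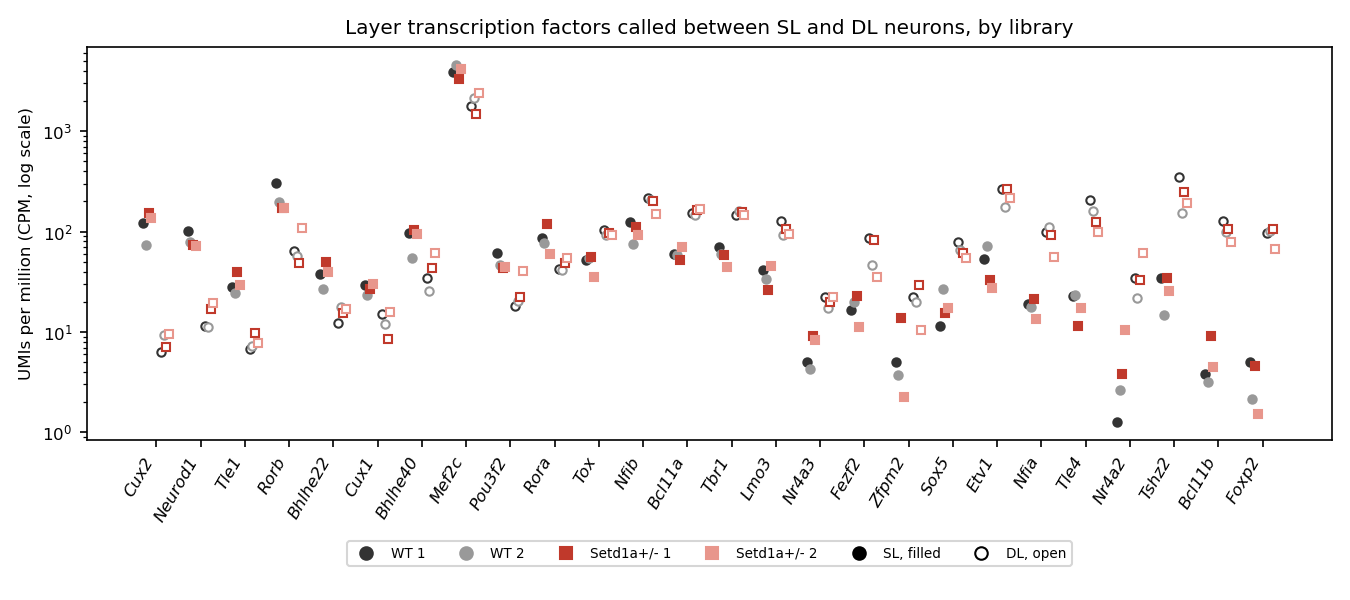
CPM (log scale) of the 26 called layer transcription factors with at least 20 CPM, in SL (filled) and DL neurons (open) of each library; circles are WT and squares Setd1a+/-, 1 point per library with no averaging. From left to right the genes go from the largest SL excess (Cux2, 73.9 to 154 CPM against 6.37 to 9.55 CPM) to the largest DL excess (Foxp2).

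Known layer genes lay mostly on the side they are known for. Clusters are named from such genes, so these counts are no independent evidence. Of 26 superficial layer genes tested, 20 were higher in SL and 0 in DL (76.9% called, against 11.7% of all genes), with a median log2 difference of 1.35. Of 34 deep layer genes tested, 26 were higher in DL and 1 in SL (79.4% called), with a median of -1.75. The exception was Thsd7a, a thrombospondin type 1 domain gene, at 40.7 CPM in SL and 19.8 CPM in DL.

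Genes of wiring and adhesion were called in both directions. Counts with subtypes weighted equally, here and in the lists that follow, stand against 579 calls in SL and 395 in DL over all genes under that weighting. Of 68 axon guidance genes listed, 50 passed the filter on low counts and were tested. Of these 50, 11 were higher in SL and 13 in DL (48.0% called, against 11.7% of all genes tested). With subtypes weighted equally, the counts were 10 and 7 of 39. Among the semaphorins, Sema3e had means of 4.57 CPM in SL and 30.8 CPM in DL, Sema3c 1.77 and 15.2 CPM, and Sema5b 0.325 and 8.60 CPM, whereas Sema3a was at 22.9 and 15.3 CPM. The SL mean of Sema5b lies below the level of 1 UMI in every SL library (0.532 to 1.26 CPM). Receptors of the semaphorins were split. Nrp1, a coreceptor of class 3 semaphorins, was at 8.91 CPM in SL and 47.8 CPM in DL, and Nrp2 at 29.5 and 19.1 CPM. Plxna2 was higher in DL (44.6 and 87.2 CPM) and Plxnd1 in SL (13.9 and 5.49 CPM). Epha4, an ephrin receptor, was higher in SL with 412 and 236 CPM.

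Of 27 cadherins and protocadherins, 6 were higher in SL and 5 in DL (40.7% called, against 11.7% of all genes), and with subtypes weighted equally 6 and 4 of 23. Cdh7 (28.5 and 8.30 CPM), Cdh8 (53.6 and 19.8 CPM) and Pcdh20 (19.6 and 3.96 CPM) were on the SL side, and Cdh18 (3.51 and 12.2 CPM), Cdh9 (7.32 and 16.5 CPM) and Pcdh17 (142 and 287 CPM) on the DL side. Among 29 neurexins, neuroligins, their partners and matrix genes (48.3% called), 6 were higher in SL, such as the C1q-like synaptic organizer C1ql3 (730 and 384 CPM) and Lrrtm1, a postsynaptic adhesion gene (73.0 and 36.0 CPM). In DL, 8 were higher, such as Nxph1, a relative of Nxph3 (3.39 and 25.5 CPM), and the neuronal pentraxin Nptx1, which binds AMPA receptors (112 and 314 CPM). With subtypes weighted equally, 7 of 25 were higher in SL and 3 in DL. Nxph1 was at 227 CPM in DL-Tshz2 and at most 2.70 CPM in the other DL subtypes.

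Of 21 ionotropic glutamate receptor genes and auxiliary subunits, 3 were higher in SL and 5 in DL (38.1% called, against 11.7% of all genes), and with subtypes weighted equally 4 and 2 of 18. The DL genes were the kainate receptor subunits Grik3 (2.51 and 57.1 CPM), Grik4 (4.52 and 9.15 CPM), Grik5 (6.499 and 11.03 CPM), and the kainate receptor partners Neto1 (10.3 and 25.6 CPM) and Neto2 (19.9 and 51.9 CPM). The AMPA subunit gene Gria4 was higher in SL (113 and 69.2 CPM). Of 15 genes of GABA receptors and their scaffold gephyrin (33.3% called), 3 were higher in SL, among them Gabra2 (170 and 68.7 CPM) and Gabrd, the delta subunit of extrasynaptic receptors (50.8 and 28.3 CPM), and 2 in DL, among them Gabra5 (42.6 and 73.9 CPM). Of 9 metabotropic glutamate receptors (22.2% called), Grm2 was higher in SL (34.0 and 17.5 CPM) and Grm8 in DL (12.6 and 32.9 CPM).

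Of 68 neuromodulator receptors listed, 30 passed the filter on low counts, which a gene can pass through its higher side alone. Among these 30, 8 were higher on each side (53.3% called, against 11.7% of all genes tested). That share describes the tested members and is no evidence about the whole list. With subtypes weighted equally, 9 of 20 were higher in SL and 6 in DL. Drd1, the D1 dopamine receptor, was at 0.820 CPM in SL, near the level of 1 UMI (0.532 to 1.26 CPM), and 15.2 CPM in DL. Receptors for acetylcholine followed, with Chrm2 at 4.47 and 19.5 CPM and the nicotinic subunit Chrna4 at 6.14 and 25.5 CPM, as did the kappa opioid receptor Oprk1 (1.85 and 15.4 CPM) and the somatostatin receptor Sstr2 (6.35 and 39.6 CPM). On the SL side were Htr2a, a serotonin receptor (60.5 and 35.5 CPM), Crhr1, the receptor of corticotropin-releasing hormone (22.5 and 9.35 CPM), and the neuropeptide Y receptors Npy1r (56.0 and 27.1 CPM) and Npy5r (10.6 and 4.80 CPM). The peptide itself, Npy, was higher in DL (14.3 and 71.4 CPM), with 250 CPM in DL-Nnat and 10.9 to 19.6 CPM in the other DL subtypes. Of 21 neuropeptides and secreted factors tested, 7 were higher in SL and 3 in DL (47.6% called), and with subtypes weighted equally 8 and 2 of 18. The SL genes included Cck, cholecystokinin (1492 and 873 CPM), Bdnf (150 and 91.8 CPM) and Adcyap1, which encodes PACAP (54.8 and 27.4 CPM). In DL-Etv1 and DL-Nnat, however, Cck was no lower than in the SL subtypes, as given under the other observations.

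Channels set how a neuron fires. Of 48 potassium channel genes and partners, 5 were higher in SL and 10 in DL (31.2% called), and with subtypes weighted equally 7 and 8 of 42. Kcna1 and Kcna6, of delayed rectifier channels, were higher in DL (52.8 and 97.9 CPM, 64.0 and 143 CPM). Kcnip2, which binds A-type channels, was higher in SL (48.7 and 21.1 CPM). Of 29 sodium, calcium and HCN channel genes, 5 were higher in SL and 1 in DL (20.7% called, against 11.7% of all genes), and with subtypes weighted equally 5 and 1 of 24. The SL genes included Cacna1h, of a T-type calcium channel (9.68 and 3.58 CPM), and Hcn4, of a hyperpolarization-activated channel (8.90 and 3.44 CPM).

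Of 25 synaptotagmins and other genes of synaptic vesicles, 8 were higher in DL and 1 in SL (36.0% called), and with subtypes weighted equally 5 and 2 of 22. The complexins Cplx1 (51.3 and 130 CPM) and Cplx2 (159 and 364 CPM) were among them, with Slc17a7, the vesicular glutamate transporter VGLUT1 (246 and 385 CPM). Syt17 was the SL gene (50.3 and 26.2 CPM). Of 31 genes of calcium-binding proteins and calmodulin targets, 3 were higher in SL and 6 in DL (29.0% called), the latter with Pcp4, a calmodulin regulator, at 991, 2018, 1171 and 798 CPM in SL and 3640, 4857, 5523 and 4034 CPM in DL. With subtypes weighted equally the balance of this list turned, with 8 of 29 higher in SL and 5 in DL, while the calls over all genes moved the same way, to 579 and 395. Of 32 immediate early and stress genes, 1 was higher in SL and 4 in DL (15.6% called, against 11.7% of all genes), and with subtypes weighted equally 2 and 1 of 27.

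None of 75 oxidative phosphorylation genes was called (median log2 difference -0.05). None was called either of 25 genes of H3K4 methylation (median -0.11), a list of the methyltransferases, Setd1a among them, with their partners and with demethylases such as Kdm5a and Kdm1a. Of 10 genes from schizophrenia exome studies, Cacna1g, a T-type calcium channel, was higher in SL (21.2 and 12.4 CPM). That is 10.0% called, against 11.7% of all genes, and with subtypes weighted equally 0 of 9 were called.

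**Figure D3:**
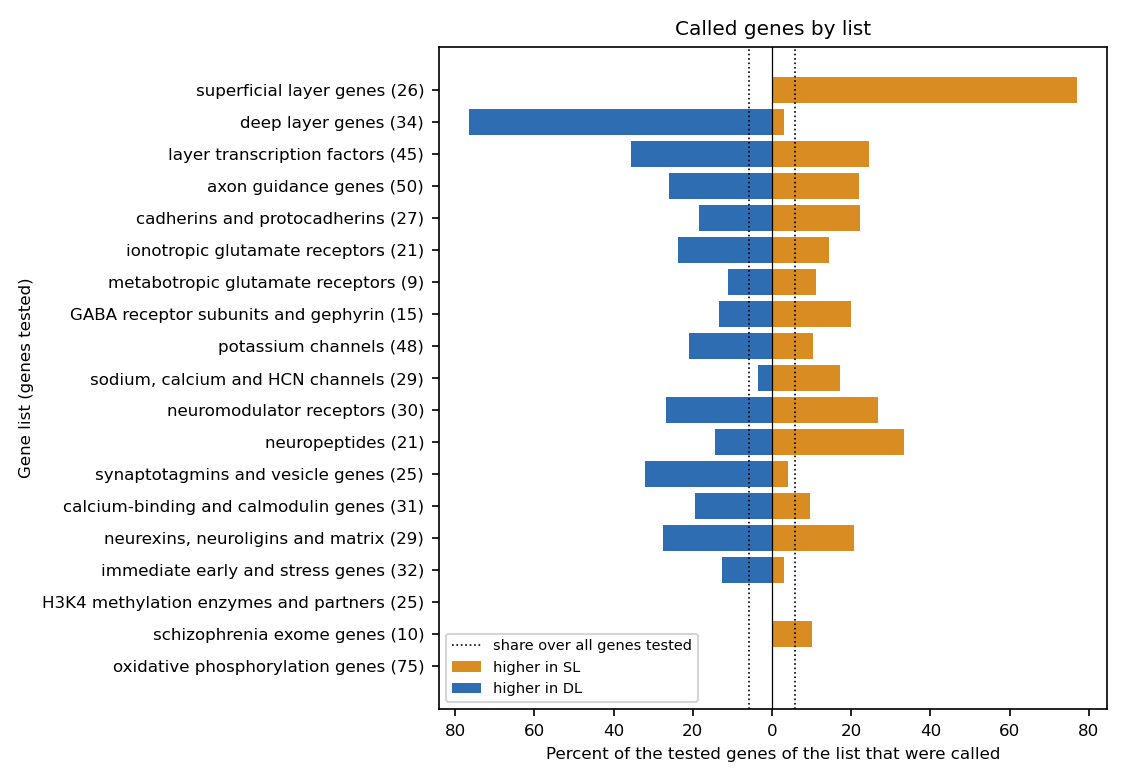
Percent of the tested genes of each list (number in parentheses) that were called higher in SL (right, orange) or in DL (left, blue), with dotted lines at the 5.81% and 5.88% of all genes. The layer lists reach farthest, with 20 of 26 and 26 of 34 genes, and 2 lists have no bar; list members were chosen with earlier results of these data known.

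The subtypes did not share a side's genes evenly. Of the 606 DL genes, 213 had their highest subtype level in DL-Foxp2, 162 in DL-Tshz2, 139 in DL-Pou3f1, 47 in DL-Etv1, 44 in DL-Nnat and 1 in SL-Myh7. Of the 599 SL genes, 270 peaked in SL-Cux2, 256 in SL-Myh7 and 73 in a DL subtype, 41 of these in DL-Pou3f1, the smallest group with 62 cells. Of the genes not called, 2317 peaked in DL-Pou3f1, 2101 in DL-Tshz2, 1562 in SL-Myh7 and 899 in DL-Etv1. A further 797 peaked in DL-Foxp2, 794 in SL-Cux2 and 639 in DL-Nnat. Peaks in DL-Pou3f1 and DL-Tshz2 were thus the most common among genes that were not called. Over the SL genes, the median log2 ratio to the SL mean was -0.61 in DL-Nnat and -0.65 in DL-Etv1, and -1.25 to -1.69 in DL-Pou3f1, DL-Tshz2 and DL-Foxp2. DL-Nnat and DL-Etv1 thus had the levels nearest to SL on these genes. The genes were chosen for a lower pooled DL level in these same cells, so this order is a description only. Genes with every subtype of one side above every subtype of the other numbered 267 of 599 and 212 of 606, against 13.9% of all genes.

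The second comparison concerns the number of cells. SL neurons made up 21.7% (95% Wilson interval 18.0 to 26.0%) and 28.5% (26.0 to 31.1%) of the excitatory neurons in WT and 28.3% and 40.5% in Setd1a+/- libraries. Means were 25.1% ± 4.81 and 34.4% ± 8.61 (SD, n = 2 each), and the difference of 9.30 percentage points was not called (exact two-sided permutation test, p = 0.667, where 2 against 2 libraries cannot go below 0.333). It ran from 3.21 to 15.4 points without 1 library and was 3.74 points with SL-Cux2 cells alone counted. The Setd1a+/- library had the higher share in both replicate pairs, which gave p = 0.5 by an exact sign-flip permutation test, the smallest p that 2 pairs allow. The shares of WT replicate 2 and Setd1a+/- replicate 1 differed by less than their counting intervals.

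The third comparison asks what Setd1a heterozygosity changed within each side, a contrast the annotation did not use. Setd1a (chr7:127776670-127800122) was at 10.1, 12.8, 4.60 and 8.30 CPM in SL and at 11.4, 12.5, 7.11 and 11.8 CPM in DL. The SL values rested on 8, 24, 6 and 11 UMIs. Both WT values were above both mutant values in SL, but the exact 95% Poisson intervals overlapped, with 4.36 to 19.9 CPM in WT replicate 1 and 4.14 to 14.8 CPM in Setd1a+/- replicate 2. The genotypes overlapped in DL, although within each replicate pair the Setd1a+/- library was the lower one in DL as in SL. The pairs were not tested for this gene alone. The log2 differences were -0.83 in SL and -0.36 in DL, and edgeR called neither. The DL difference was lost without Setd1a+/- replicate 1, as given below. UMIs of this assay come from near the 3′ end of transcripts. Their position relative to the altered exon was not examined, so they do not check the genotype directly.

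Between genotypes edgeR called 0 genes on either side (0.0% of 9365 in SL and of 11180 in DL). An unadjusted p under 0.05 was reached by 100 genes in SL (1.07%) and 169 in DL (1.51%). DESeq2 called 0 genes on both sides, with 12 and 45 at that level. These shares lie below the 0.05 expected with no effect, so 0 calls do not show that genotype changed nothing. Once the replicate entered edgeR as a block, 360 of 9365 genes in SL and 725 of 11180 in DL reached an unadjusted p under 0.05. The SL share still lies below the 0.05 expected with no effect, and the DL share lies above it. The added term leaves fewer residual degrees of freedom in a fit of 4 libraries. That fit called 3 genes in SL and 27 in DL, and of the 27, 22 were lower and 5 higher in Setd1a+/-. The 3 in SL, named after their values were seen, were Cartpt, Gm42418 and mt-Atp8. Gm42418 was at 205, 49.99, 21.5 and 37.0 CPM in SL. WT replicate 2 lay nearer to both mutant libraries than to WT replicate 1.

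The smallest p in SL belonged to Cartpt, which encodes the CART neuropeptide. In SL neurons it was at 13.9, 13.8, 46.8 and 70.9 CPM, a log2 difference of 2.10 that was not called without the block (unadjusted p = 0.000457 by edgeR), although it was without the filter on low counts or without Setd1a+/- replicate 1. All of its SL UMIs lay in SL-Cux2, where the levels were 18.4, 16.7, 62.3 and 116 CPM, and SL-Myh7 had 0 in every library. In DL neurons it was at 5.03, 2.45, 3.26 and 34.1 CPM, the last from DL-Etv1 of Setd1a+/- replicate 2 (66.6 CPM). Cdh8, the cell adhesion gene above, was at 80.9, 63.3, 39.9 and 30.2 CPM in SL (log2 difference -1.004, not called), and Etv1 at 53.1, 71.8, 33.0 and 27.2 CPM (-1.06, not called). The genotypes did not overlap for these 3 genes in SL, but the genes were taken from the smallest p-values, which favours such separation. With 2 against 2 libraries, full separation has a probability of 0.333 when genotype has no effect. Others among the 10 smallest p-values in SL were those of 6030458C11Rik, Cmtr1, Ccdc82, Gm42418, E130102H24Rik and Gm3510. In DL the leading genes, none called by the same test, included Ly6g6e (15.1, 10.8, 2.96 and 3.64 CPM), Syt10 (35.5, 19.8, 10.4 and 6.37 CPM) and the immediate early gene Nr4a1 (65.0, 68.9, 144 and 110 CPM). The others were Tsc22d4, Sulf1, Gm42418, Gm14419, Hrk, Clic1 and A730063M14Rik. Subtype levels are not given for these DL genes. DL-Foxp2 gave a smaller share of the DL cells in Setd1a+/- replicate 2 than in the other libraries. The part of this mix in the DL differences was not tested. With the block, Ly6g6e, Syt10, Nr4a1, Tsc22d4, Gm42418 and Gm14419 were called and the other 4 were not.

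A direct test of whether the genotype effect differs between SL and DL called 0 of 10959 genes (0.0%) by edgeR, with 461 at an unadjusted p under 0.05 (4.21%). DESeq2 also called 0, with 37 at that level, while the replicate block called 18 and the fit without the filter on low counts 6. The smallest p was that of Gad1, the GABA-synthesizing enzyme of interneurons (edgeR adjusted p = 0.101). It rested on 28 UMIs in the SL neurons of Setd1a+/- replicate 1, of which 19 lay in 1 of the 196 cells, and on 44 UMIs in the DL neurons of WT replicate 2, 13 of them in 1 of 850 cells. Pcp4 followed, with a log2 difference of the effects of -0.71 (adjusted p = 0.121 by edgeR). WT replicate 2 had the highest SL value, 2018 CPM, and WT replicate 1, at 991 CPM, lay between the mutant libraries. Wipf3, a WAS/WASL-interacting protein gene, was at 44.2, 33.0, 54.5 and 78.4 CPM in SL and 48.6, 57.9, 32.6 and 49.1 CPM in DL. Its log2 difference of the effects was 1.28 (adjusted p = 0.121 by edgeR). Within SL, Wipf3 was at 82.8, 99.8, 108 and 139 CPM in SL-Myh7 and 31.8, 19.2, 36.8 and 39.6 CPM in SL-Cux2. SL-Myh7 had its largest share of the SL cells, 32.1%, in Setd1a+/- replicate 2. The part of this mix in the Wipf3 difference was not tested. For Etv1 the SL effect minus the DL effect was -1.29 on the log2 scale (adjusted p = 0.152 by edgeR), and its DL levels were 267, 178, 263 and 217 CPM. In SL-Cux2 alone Etv1 was at 61.9, 75.7, 38.8 and 28.4 CPM. The other genes among the 10 smallest p-values were S100b, Ddah1, Inhba, Nr4a1, Klhl3 and Grp, with adjusted p from 0.236 to 0.638 by edgeR. Of these genes, all but Gad1 were among the 18 called with the block.

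**Figure D4:**
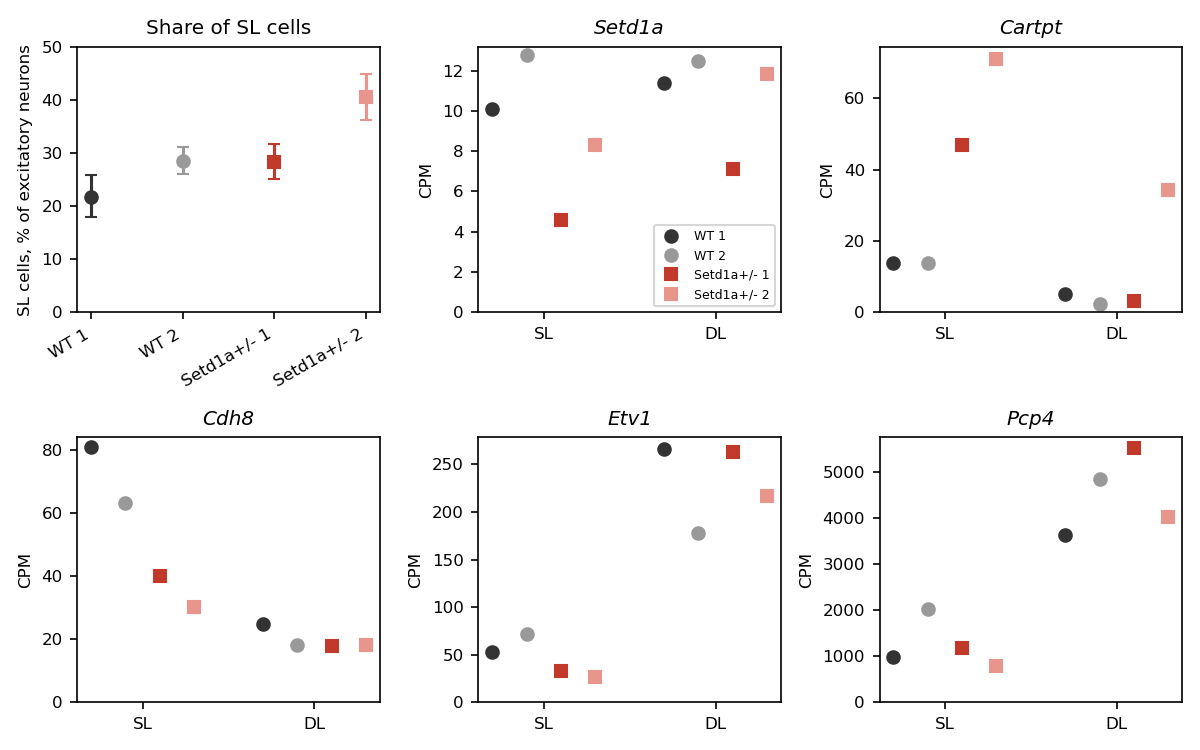
Share of SL cells among excitatory neurons (bars are 95% Wilson intervals) and CPM of 5 genes in SL and DL neurons, 1 point per library, circles for WT and squares for Setd1a+/-. Cartpt is higher and Cdh8 and Etv1 lower in both Setd1a+/- libraries on the SL side, but they were taken from the smallest p-values in SL. None of the 5 genes was called between genotypes by edgeR with all 4 libraries, low counts filtered and no replicate block.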

How the data were processed

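Single-cell RNA sequencing libraries of the PFC were analysed. The authors aligned reads and counted UMIs per gene and barcode with Cell Ranger 3.0.2 (mm10, per the submitters' processing notes), with raw whole-number counts deposited before any normalization. The authors dropped cells below 800 genes or above 10% mitochondrial UMIs, clustered the rest in Seurat 3.2.0, merged clusters by inspection and named them by markers; removal of doublets is not given in the sources used here. Their annotation was used as deposited, with no further filter on cells.

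UMIs were summed per library and side, and tested with edgeR 4.0.16 in R 4.3.3 (quasi-likelihood test with TMM scaling, genes kept by filterByExpr at 10 counts, p-values adjusted by Benjamini-Hochberg); calls needed an FDR under 0.05 and a fold above 1.5. SL against DL had the library as a block, and genotype was tested within each side and as an interaction with side, without a replicate block. Pairs of libraries come from the biological replicates of the methods, and deviations of same-numbered libraries from their genotype means correlated across genes with r = 0.44 in SL and 0.57 in DL. Alternatives were DESeq2 1.42.0, other scaling, no filter, the replicate block, thinning to 2000 UMIs, subtypes left out or weighted equally, and each library left out. Shares and depths were tested by exact permutation in Python 3.11.15 (scipy 1.17.1). The scripts were tested on simulated data. Intervals cover counting error only. The p-values set a difference against the variation between libraries. Where a block or pairing was used, they set it against the variation left after that block or pairing.

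Named were the 15 called genes per direction with the largest log2 difference, at least 20 CPM on the higher side and 1 direction in every library (no predicted, Rik, mitochondrial or ribosomal genes), the 10 smallest p-values of each genotype test, and a selection from up to 6 called members per list and direction and the layer transcription factors of at least 20 CPM; genes outside these were chosen after their values were seen. The members and lists were chosen with earlier results of these data known. Shares called in a list are of its members that passed the filter, which a gene can pass through its higher side alone. Coordinates are from GENCODE vM21 (GRCm38). Some items are not reported here.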

Additional observations from a re-analysis of the deposited data

Results flagged for a closer look

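Among 52 genes whose 4 within-library log2 differences of SL minus DL were compared, 5 had 1 library that stood apart from the other 3, where chance alone flags about 1 in 20. For Myh14 it was Setd1a+/- replicate 1, with 3.57 against 2.38 to 2.54. Its DL level there was 1.78 CPM, where 1 UMI was worth 0.296 CPM. For Cux1 it was the same library, with 1.504 against 0.85 to 0.91. Grik3 stood apart in WT replicate 1, with -5.02 against -3.77 to -3.98. Its SL level there was 1.26 CPM, the level of 1 UMI. In Setd1a+/- replicate 2, Prss23 was at -2.51 against -3.16 to -3.29, and Mef2c at 0.82 against 1.07 to 1.12. Prss23 had 17 UMIs in SL over all libraries. All 5 genes had the same direction in the 4 libraries.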

How the results depend on the processing

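The 1205 genes called between SL and DL became 778 with DESeq2 (773 of them shared with the 1205) and 682 without the library block. With cells thinned to 2000 UMIs and those below 2000 left out, 690 of 6923 genes tested were called. Each library left out gave 1090 to 1297. The other alternatives gave 896 to 1518. Added after seeing the data, leaving out the 5% of cells with the most UMIs gave 1217 and the libraries of replicate 1 or 2 alone gave 1228 and 1051. Of 52 genes named between the sides, 47 kept their call under every alternative that tested them. The others were Ighm, Nr4a2, Tshz2 and Rora, which lost it with subtypes weighted equally, Rora also with the libraries of replicate 2 alone, and Rora and Nfib, which lost it without DL-Foxp2 cells. Tshz2 turned to 2.17 without DL-Tshz2 cells.

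The replicate block, which leaves fewer residual degrees of freedom, called 3, 27 and 18 genes for genotype in SL, in DL and for the interaction. No filter on low counts gave 3, 11 and 6. Leaving out a library leaves 1 genotype with a single library, which is then assumed to vary like the other, and gave 0 to 1 genes in SL (1, Cartpt, without Setd1a+/- replicate 1), 0 in DL and 0 to 41 for the interaction (41 without Setd1a+/- replicate 1, 13 without WT replicate 1, 9 without Setd1a+/- replicate 2). The Setd1a difference in DL ran from -0.78 to 0.011 without 1 library, the latter without Setd1a+/- replicate 1. The cause was not tested.

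With subtypes weighted equally, the median of superficial layer genes became 1.17, axon guidance -0.045, neuromodulator receptors 0.68, calcium-binding proteins 0.21 and H3K4 genes 0.036. The UMI difference became -733 as a mean over subtype medians and -414 to -138 without 1 library. The difference in SL share was 3.21 to 15.4 points without 1 library and 3.74 with SL-Cux2 alone. At 89 SL cells in the smallest library, genes near 1 UMI cannot be compared.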

Other observations

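Bhlhe40, a basic helix-loop-helix repressor called higher in SL, had its highest level in a deep subtype, with 189 CPM in DL-Pou3f1, 108 CPM in SL-Myh7 and 80.2 CPM in SL-Cux2, against 3.44 CPM in DL-Tshz2 and 12.0 CPM in DL-Foxp2. Cholecystokinin (Cck), also called higher in SL, was at 1525 CPM in SL-Cux2, 1414 CPM in SL-Myh7, 1612 CPM in DL-Etv1 and 1543 CPM in DL-Nnat, but at 68.8 CPM in DL-Foxp2 and 18.6 CPM in DL-Tshz2. DL-Pou3f1 had 7 cells in WT replicate 1 and 8 in Setd1a+/- replicate 2, and these libraries were left out of its mean levels. Those levels rest on 35 cells of WT replicate 2 and 12 cells of Setd1a+/- replicate 1.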
